A study of Mus musculus with 16 samples.

Results

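The comparison described here was ivermectin against DMSO vehicle in a BetaTC6 line labelled as a P2ry1 knockout. It held 8 of the 16 mouse libraries of the study, 4 with ivermectin and 4 with vehicle, chosen by the genotype and treatment given in the sample labels. BetaTC6 is an insulin-secreting mouse line derived from an insulinoma, with a C57BL/6 strain background in the labels. Cells of all groups were grown for 3 days, preincubated in glucose-free buffer and then stimulated for 30 min with 20 mM glucose, and ivermectin was present or absent during that stimulation. The other 8 libraries were wild-type BetaTC6 cells under the same 2 treatments. All 16 libraries, controls included, therefore carried the glucose stimulus. The ivermectin concentration and the number of edited clones are not given in the sources used here, so the knockout results apply to 1 line. The sample titles carry the numbers 26, 28, 29 and 31 for vehicle and 32 to 35 for ivermectin. The labels do not say what these count, and any order they mark and the treatment cannot be told apart. The labels number the replicates but do not say whether they came from separate cultures, and the p-values measure the spread between these libraries.

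P2ry1 encodes the P2Y1 receptor, a Gq-coupled receptor for extracellular ADP that releases calcium from intracellular stores through phospholipase C. In beta cells, nucleotides are stored with insulin and released with it, and calcium entry and store release both drive exocytosis and a fast wave of transcription. That wave is formed by immediate early genes such as Egr1, Fos, Junb and Nr4a1, whose transcripts rise within minutes because the proteins that switch them on, including CREB and the serum response factor with its Elk partners, are already in the cell. Ivermectin is an antiparasitic macrocyclic lactone that acts on glutamate-gated chloride channels of worms and, in vertebrates, also modulates P2X4, glycine and GABA-A receptors.

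Library depth and cell identity were examined before the comparison. Whole-number expected counts summed to between 1744346 and 2013475 in the vehicle libraries and to between 1575353 and 1886390 in the ivermectin libraries (exact two-sided permutation p = 0.0857, smallest possible p = 0.0286 for 4 against 4). Ins2 was at between 34471 and 40043 counts in the vehicle libraries and between 33888 and 39139 with ivermectin, and Ins1, Iapp, Pdx1 and Nkx6-1 were also present in each of the 8. So were hormone genes of other islet cells. Gcg of alpha cells had 356 to 445 counts with vehicle and 309 to 429 with ivermectin, and Sst of delta cells 22 to 38 and 26 to 41. Of 25 acinar and ductal markers between 4 and 9 had a count in each library, and together they held 0.00359% to 0.00516% of counts. Bhlha15, an acinar transcription factor, was the more abundant of the 2 that could be tested, at 48 to 78 counts with vehicle and 42 to 58 with ivermectin. The acinar markers Cpa1 and Prss2 and the duct marker Krt19 had 0 counts in all 8 libraries, which allows at most 3 counts per library, or 1.90 CPM (counts scaled to a common library size) in the shallowest. The liver transcript Alb was found in every library, from 34 to 94 counts with vehicle and from 46 to 268 with ivermectin. P2ry1 itself was at 83.6, 94.8, 72.8 and 84.8 CPM in vehicle replicates 1 to 4 and at 84.2, 92.5, 81.0 and 84.1 CPM with ivermectin. Its mean was 84.0 ± 8.97 CPM with vehicle (SD, n = 4) against 94.6 ± 8.57 CPM (SD, n = 4) in wild-type vehicle libraries. The transcript was therefore abundant in the line labelled knockout, and gene-level counts do not check an edit that leaves the transcript in place.

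Ivermectin left no gene past the threshold in the line labelled knockout. Of 10822 genes tested, 0 had an adjusted p under 0.05 by the edgeR quasi-likelihood test with Benjamini-Hochberg adjustment (percent called 0), and the smallest adjusted p was 0.556. DESeq2 and limma voom also called 0, with 377 of 17707 genes (2.13%) and 864 of 10822 (7.98%) at an unadjusted p under 0.05. At an unadjusted p under 0.05 edgeR gave 822 genes (7.6%), of which 435 (4.02%) were higher with ivermectin and 387 (3.58%) were lower. The log2 difference was above 0 for 5437 genes (50.2%), and its median over all genes was 0.00. In bulk libraries such as these, fewer cells of a kind and less RNA per cell cannot be told apart. The middle of the distribution was narrow, with quartiles at -0.10 and 0.10 and the 5th and 95th percentiles at -0.30 and 0.30. The 4 ivermectin values and the 4 vehicle values did not overlap for 399 genes (3.69%), with ivermectin higher for 205 (1.89%) and lower for 194 (1.79%). The count of 0 depended on the low-count filter, since 23 of 17711 genes (0.13%) passed when every gene with a count was kept. That fit gave all genes the same residual spread. The standard error of Rn45s, a ribosomal RNA transcript, was 0.0523 in it and 0.539 with the filter, and Egr1 (edgeR adjusted p = 0.0271), Junb (0.000747) and Nr4a1 (0.0460) were among the 23.

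The intervals set how large a difference could have gone unseen. For 8394 genes (77.6%) the 95% interval of the difference lay within 1.5-fold in either direction, and for 10282 (95.01%) it lay within 2-fold. Precision followed the level. Among the 1827 genes with an average of at least 7 log2 CPM, 99.8% had intervals within 1.5-fold, and the median interval reached 1.11-fold either side of the estimate. Among the 579 genes under 3 log2 CPM, 0.173% had intervals within 1.5-fold and 44.7% within 2-fold. A gene moving alone would have needed a median difference of 1.31-fold in the most abundant class to pass the adjustment, against 3.85-fold in the least abundant. Differences over 2-fold were estimated for 33 genes, 23 of them in the least abundant class and 10 in the next, and none passed the threshold. The most negative estimate was U05342, at 18, 10, 24 and 18 counts with vehicle and 0, 0, 0 and 11 counts with ivermectin. The most positive estimate, 1.52 for the opioid precursor gene Pdyn, rested on 1 count in the 8 libraries.

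**Figure D1:**
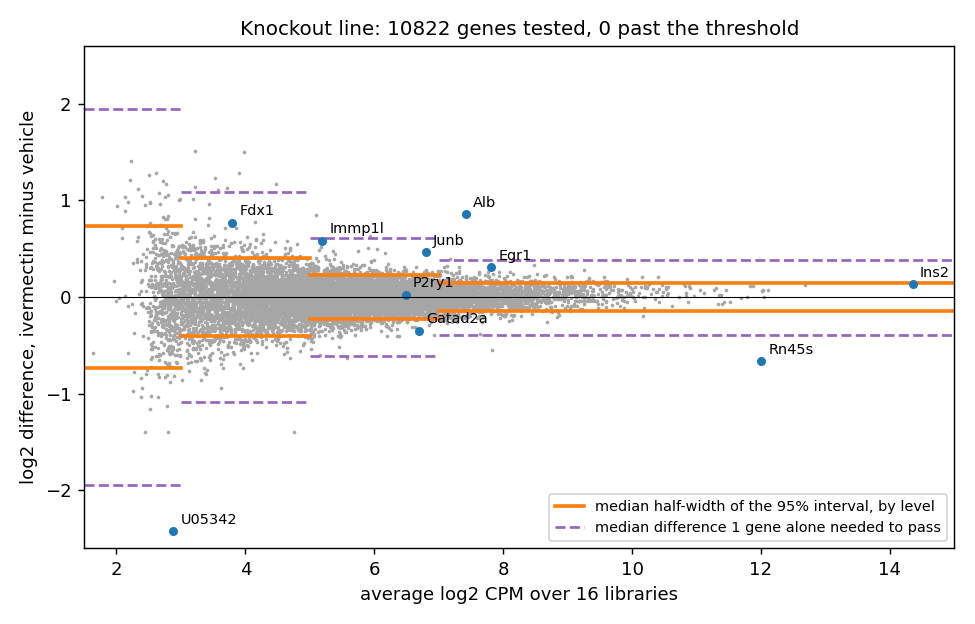
Log2 difference between ivermectin and vehicle in the knockout line (vertical axis) against the average log2 CPM over 16 libraries (horizontal axis), 1 point per gene for 10822 genes. Solid orange lines give the median reach of the 95% interval in each class of level and dashed purple lines the median difference a gene alone would have needed to pass; both narrow from the left to the right of the plot.

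The immediate early genes are the group for which the ivermectin response of the line can be set beside that of wild-type cells. Egr1, Fos, Junb, Ier2, Nr4a1 and Btg2 are named because they are the 6 genes that passed higher in wild type in these same data. A smaller estimate in the knockout line can come in part from that choice, and its part was not tested. In the knockout line Egr1, Fos, Junb and Nr4a1 were each estimated higher with ivermectin and none passed the adjusted threshold, and for Egr1 the difference between the lines did pass. The promoters of Fos, Junb, Nr4a1 and Dusp1, 4 of the early response genes with an unadjusted p under 0.05 in the knockout comparison, are printed here with matches to the CREB core marked. Egr1 also had such a p and its promoter is not shown, so these 4 do not give the share of early response genes that hold the core. The Fos window lies at chr12:85473640-85473939 on the plus strand, Junb at chr8:84978699-84978998 on the minus strand, Nr4a1 at chr15:101266596-101266895 on the plus strand and Dusp1 at chr17:26508423-26508722 on the minus strand (RefSeq, GRCm38.p6, each 300 bases ending 50 bases after an annotated start and given 5′ to 3′ on the gene's strand). Capitals mark TGACG, the core of the site that CREB binds, or the whole site TGACGTCA, searched on both strands so that CGTCA is the same core read on the other strand. Each TGACGTCA holds the core on both strands.
Fos: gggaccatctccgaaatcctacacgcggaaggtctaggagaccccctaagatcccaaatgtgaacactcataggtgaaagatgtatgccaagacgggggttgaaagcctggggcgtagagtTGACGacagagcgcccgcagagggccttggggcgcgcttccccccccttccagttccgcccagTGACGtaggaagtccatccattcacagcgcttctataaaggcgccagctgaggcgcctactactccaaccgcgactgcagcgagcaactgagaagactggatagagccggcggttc
Junb: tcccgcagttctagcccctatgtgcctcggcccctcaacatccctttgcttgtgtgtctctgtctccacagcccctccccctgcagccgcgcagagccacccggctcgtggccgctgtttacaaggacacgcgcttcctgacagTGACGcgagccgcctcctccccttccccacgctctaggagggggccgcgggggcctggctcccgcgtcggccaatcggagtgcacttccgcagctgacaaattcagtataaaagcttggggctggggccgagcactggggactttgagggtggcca
Nr4a1: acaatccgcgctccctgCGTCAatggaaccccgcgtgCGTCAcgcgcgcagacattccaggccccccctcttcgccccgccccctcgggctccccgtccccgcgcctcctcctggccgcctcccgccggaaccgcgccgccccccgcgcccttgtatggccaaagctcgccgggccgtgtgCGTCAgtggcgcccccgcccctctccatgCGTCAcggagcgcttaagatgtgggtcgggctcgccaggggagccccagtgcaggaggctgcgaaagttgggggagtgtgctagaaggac
Dusp1: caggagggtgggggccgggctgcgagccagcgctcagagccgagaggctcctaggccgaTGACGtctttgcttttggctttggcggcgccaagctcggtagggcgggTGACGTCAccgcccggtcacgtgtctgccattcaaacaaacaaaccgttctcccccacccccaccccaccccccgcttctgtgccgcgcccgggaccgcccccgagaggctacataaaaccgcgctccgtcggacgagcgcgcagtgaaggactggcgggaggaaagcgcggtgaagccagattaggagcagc
The core was found in 4 positions for Nr4a1, 2 for Fos and 1 for Junb, and Dusp1 held the whole site. The promoter of Btg2, not printed, also held the whole site, with a log2 difference of 0.10 and an unadjusted edgeR p of 0.417. Of 32851 RefSeq promoters of the same length, 20.8% held the core and 1.79% the whole site, and a match in these windows is a description of letters only.

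Egr1, a zinc-finger transcription factor of the immediate early wave, was at 224, 180.0, 168 and 179.6 CPM in vehicle replicates 1 to 4. With ivermectin it was at 246, 230.2, 224 and 229 CPM. The groups overlapped at vehicle replicate 1, which at 224.2 CPM was just above the lowest ivermectin library at 224.1 CPM, and the other 3 vehicle libraries lay below all 4 ivermectin libraries. The log2 difference in the knockout line was 0.31 (SE 0.116, 95% interval 0.07 to 0.55), or 1.24-fold, with an unadjusted edgeR p of 0.0114 and an adjusted p of 0.595. In wild-type cells Egr1 rose from 118 ± 27.6 CPM to 342 ± 75.9 CPM (SD, n = 4 each), a log2 difference of 1.53 with an edgeR adjusted p of 2.00e-09. It was 1 of 66 genes (0.61%) past the threshold there and 1 of the 6 (0.0554%) that were higher. Hepatocyte markers, whose median log2 difference in wild type was -2.47, made up 48 of the 66. The effect in the knockout line was smaller than in wild type by 1.22 on the log2 scale (95% interval of knockout minus wild type -1.58 to -0.85, edgeR adjusted p = 0.000351). That difference passed in each of 27 alternatives, with values from -1.37 to -1.08 and edgeR or other adjusted p from 6.4e-25 to 0.00562. The vehicle mean of Egr1 was 188 ± 24.8 CPM (SD, n = 4) in the knockout line, above the wild-type vehicle mean. In all, 24 genes (0.222%) differed between the lines at an adjusted p under 0.05 and 554 (5.12%) at an unadjusted p under 0.05.

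Junb, which encodes a subunit of the AP-1 transcription factor, was at 102, 75.2, 73.8 and 95.9 CPM with vehicle and at 94.9, 110.2, 114 and 161 CPM with ivermectin. Ivermectin replicate 1 lay inside the vehicle range, and replicate 4 stood above the other 7 libraries. The log2 difference was 0.47 (SE 0.132, 95% interval 0.20 to 0.74), with an unadjusted edgeR p of 0.00112 and an adjusted p of 0.595, and it was 0.30 without ivermectin replicate 4. Its difference from the wild-type effect was -0.44, with an edgeR adjusted p of 0.964.

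Fos, the AP-1 partner of the Jun proteins, was at 47.0, 30.1, 36.4 and 41.3 CPM with vehicle and at 35.4, 49.7, 51.6 and 80.2 CPM with ivermectin. As for Junb, ivermectin replicate 1 fell within the vehicle range and replicate 4 was the highest. The log2 difference was 0.47 (SE 0.201, 95% interval 0.07 to 0.88, edgeR adjusted p = 0.642), and leaving out ivermectin replicate 4 brought it to 0.23. Nr4a1, an orphan nuclear receptor and target of CREB, was at 45.9, 45.1, 35.9 and 37.6 CPM with vehicle and at 51.5, 60.0, 40.5 and 80.2 CPM with ivermectin. Only ivermectin replicate 3 lay within the vehicle range. Its log2 difference was 0.50 (SE 0.195, 95% interval 0.10 to 0.89, edgeR adjusted p = 0.607), and 0.31 without ivermectin replicate 4.

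Dusp1, a phosphatase that switches off MAP kinases, was at 43.6, 37.1, 30.9 and 38.1 CPM with vehicle and at 44.5, 42.8, 43.8 and 58.9 CPM with ivermectin. Ivermectin replicate 2 lay below the highest vehicle library, replicates 1 and 3 just above it, and replicate 4 stood apart. The log2 difference was 0.34 (SE 0.129, edgeR adjusted p = 0.595). Ier2 and Btg2, an early response nuclear protein and an antiproliferative gene, had smaller estimates of 0.23 (95% interval -0.08 to 0.55) and 0.10 (95% interval -0.14 to 0.34). Ier2 was at 0.15 without ivermectin replicate 3, and Btg2 ranged from 0.03 without ivermectin replicate 4 to 0.18 without vehicle replicate 1. For Fos, Ier2 and Btg2 the effect in the knockout line minus that in wild type was -0.81, -0.64 and -0.60, with edgeR adjusted p of 0.850, 0.850 and 0.435. A difference between the lines was therefore not established for these genes, nor for Nr4a1 at -0.38 (95% interval -0.95 to 0.18).

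**Figure D2:**
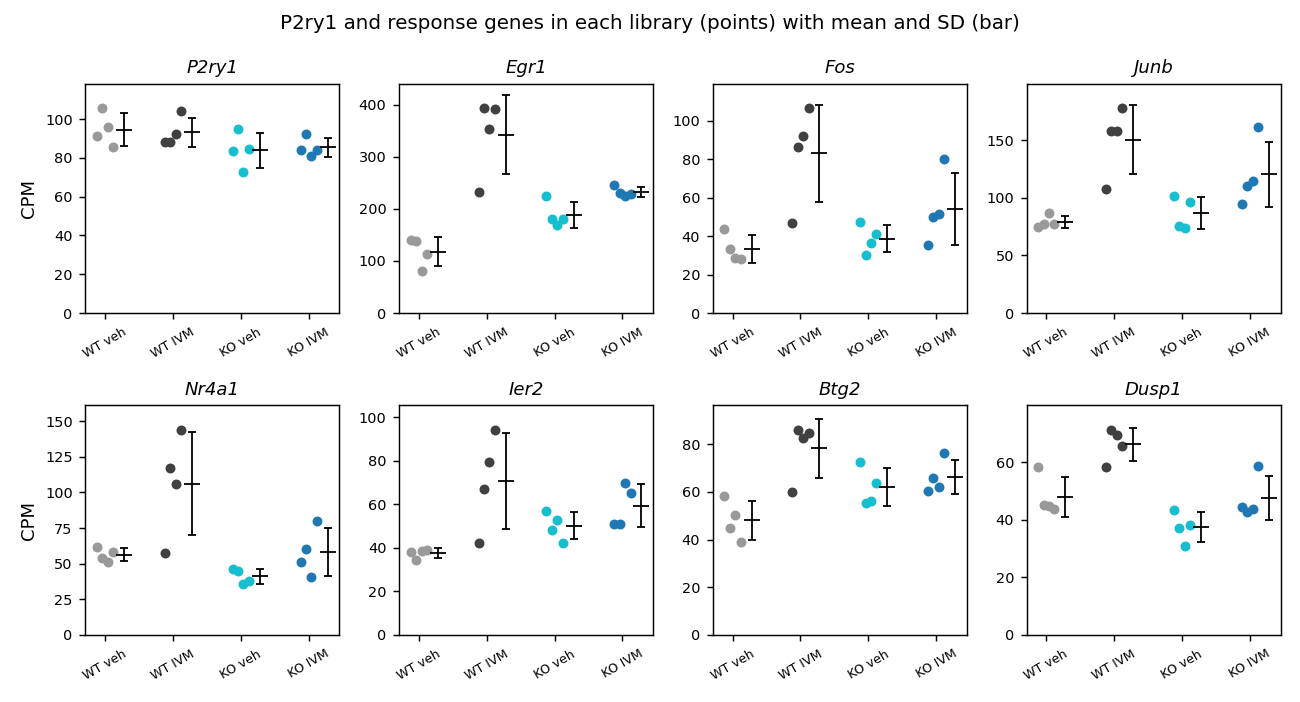
CPM (vertical axis, from 0) of P2ry1 and 7 response genes in each library of the 4 groups, WT for wild type, KO for the line labelled knockout, veh for vehicle and IVM for ivermectin; points are libraries and bars the mean with the SD of 4. The knockout ivermectin points of Egr1 lie between 224.1 and 245.5 CPM, and 3 of the 4 wild-type ivermectin points lie at or above 353 CPM.

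**Figure D3:**
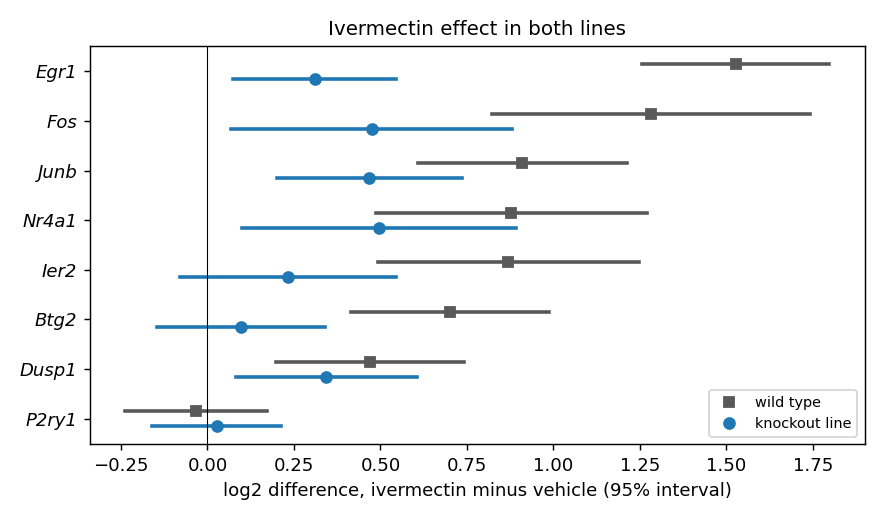
Log2 difference between ivermectin and vehicle (horizontal axis) with its 95% interval for 7 response genes and P2ry1 in wild type (squares) and in the knockout line (circles). The intervals of the lines do not overlap for Egr1 and Btg2, overlap for Junb, Fos, Nr4a1, Ier2 and Dusp1, and span 0 in both lines for P2ry1.

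No member of the wider lists of response genes passed the adjusted threshold, and at an unadjusted p under 0.05 the shares of all genes were 4.02% higher and 3.58% lower. Of the AP-1 genes tested, 6 of 10 were above 0, with a median log2 difference of 0.08 against 0.45 in wild type, and 2 of the 10, Junb and Fos, were higher at an unadjusted p under 0.05. In the list of Egr family genes and cofactors of the serum response factor, 5 of 8 were above 0, and at that p 1 of the 8, Egr1, was higher and 2 were lower. The lower ones were Elk1 and Srf, which together occupy serum response elements, at log2 differences of -0.35 and -0.28 (edgeR adjusted p = 0.595 and 0.642), and Srf was at -0.19 without ivermectin replicate 1. The 4 Elk1 values with ivermectin, from 25.5 to 40.7 CPM, lay below the 4 with vehicle, from 40.9 to 45.9 CPM. Of the Nr4a and CREB target genes 9 of 16 were above 0, of the MAP kinase feedback genes 6 of 14, and of the Ier, Btg, Zfp36 and Klf genes 19 of 28, with medians of 0.05, -0.02 and 0.06. At an unadjusted p under 0.05, 2 of the 16, 1 of the 14 and 0 of the 28 were higher, and 0 of each list were lower. With 7.6% of all genes at that p in either direction, the 0 of 28 is near the background.

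Genes of the signalling path below the receptor were split in direction. Among genes for Gq, phospholipase C and calcium stores, 14 of 39 were above 0, 1 was higher at an unadjusted p under 0.05 and 3 were lower, with a median of -0.04, against 50.2%, 4.02% and 3.58% of all genes. With the length and GC trend of each library taken out, 19 of the 39 were above 0 and 0 reached an unadjusted p under 0.05. Of all 10822 genes 5530 were then above 0, and 374 were higher and 314 lower at that p. Calm2, which encodes the calcium sensor calmodulin, was higher at 716 to 849 CPM with ivermectin against 674 to 741 CPM with vehicle, and the groups overlapped (log2 difference 0.17, edgeR adjusted p = 0.595, and 0.07 with that trend taken out). Camk2b, a calmodulin-dependent kinase subunit, Nfatc3, a calcium-responsive transcription factor, and Atp2a3, a calcium pump of the endoplasmic reticulum, were lower by -0.21, -0.22 and -0.11 on the log2 scale. Gnaq, the Gq alpha subunit, was at -0.13 (95% interval -0.30 to 0.04) and Itpr1, an inositol trisphosphate receptor, at -0.07 (95% interval -0.32 to 0.17). Among purinergic receptor and nucleotide genes 16 of 37 were abundant enough to test. P2rx4, which encodes the ATP-gated channel that ivermectin modulates, was at a log2 difference of 0.03 (95% interval -0.26 to 0.31). Adora2b, an adenosine receptor gene, had 4, 8, 10 and 2 counts with vehicle and 12, 8, 13 and 11 with ivermectin, so its log2 difference of 1.05 rested on few reads. Of 21 tested genes for other proteins that ivermectin acts on, 0 reached an unadjusted p under 0.05. Glrb, the glycine receptor beta subunit, was at 0.23 (SE 0.114).

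Beta-cell genes differed by small amounts. Ins2 was at 0.13 (95% interval -0.01 to 0.27) and Ins1 at 0.12 (95% interval -0.02 to 0.25), so differences in insulin transcript above 1.21-fold lay outside the interval of Ins2. Leaving out ivermectin replicate 3 brought Ins2 to 0.04 and Ins1 to 0.05, leaving out vehicle replicate 1 brought Ins1 to 0.18, and without both ivermectin replicate 3 and vehicle replicate 2 Ins2 was at -0.0163. Iapp, the co-secreted amyloid polypeptide, was at 7451, 6631, 7458 and 7284 CPM with vehicle and at 7714, 7332, 8274 and 8149 CPM with ivermectin. The groups overlapped by ivermectin replicate 2, and the log2 difference was 0.13 (edgeR adjusted p = 0.624), against -0.0240 with the length and GC trend of each library taken out. Of the 23 hormone and prohormone processing genes 17 were above 0, and 11 with that trend taken out. Of all 10822 genes 50.2% were above 0, and 5530 genes were with that trend taken out. At an unadjusted p under 0.05, 1 of the 23 was higher and 1 was lower, against 4.02% and 3.58% of all genes. Among the beta-cell transcription factor genes 4 of 21 were above 0, with a median of -0.06. With that trend taken out 6 were above 0, again at a median of -0.06. At an unadjusted p under 0.05, 1 of the 21 was higher and 1 was lower. Pdx1 was at -0.11 (-0.05 without ivermectin replicate 4) and Mlxipl, the glucose-responsive factor ChREBP, at -0.19 (edgeR adjusted p = 0.616). Nkx6-2 was the 1 member of the 21 whose ivermectin values, from 21.7 to 24.2 CPM, all lay above the vehicle values, from 15.4 to 20.3 CPM. Of all genes 1.89% were placed so. Among channel, glucose entry and exocytosis genes 13 of 44 were above 0, with a median of -0.09. At an unadjusted p under 0.05, 1 of the 44 was higher and 3 were lower. Only 1 of the 44 had ivermectin values all below the vehicle values, against 1.79% of all genes. Abcc8, the sulfonylurea receptor subunit of the KATP channel, was at 825, 890.2, 790.2 and 786 CPM with vehicle and at 784, 768, 724 and 768 CPM with ivermectin, with the lowest vehicle library just above the highest ivermectin library (log2 difference -0.11, edgeR adjusted p = 0.643). Abcc8 was at -0.07 without vehicle replicate 2 and at -0.04 with the length and GC trend of each library taken out. Scn8a, a voltage-gated sodium channel, was at -0.56 (edgeR adjusted p = 0.595) with overlapping groups.

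Gene lists of the ribosome, the respiratory chain and the proteasome sat above 0 with small differences. Of 80 ribosomal protein genes 75 were higher, with a median of 0.12, and 25 had an unadjusted p under 0.05 in that direction and 0 in the other, against 4.02% of all genes higher and 3.58% lower. Rps23 was at 549, 468, 548 and 556 CPM with vehicle and at 569.9, 575, 658 and 651 CPM with ivermectin. These groups did not overlap, and vehicle replicate 2 was the lowest library by far (log2 difference 0.21, edgeR adjusted p = 0.595, and 0.08 with the length and GC trend of each library taken out). Many ribosomal protein genes have near-identical processed copies among which reads can be split, so values of individual members are uncertain. Of 80 oxidative phosphorylation genes 65 were higher, with a median of 0.11 and 18 at an unadjusted p under 0.05. Cycs, which encodes the electron carrier cytochrome c, was at 276, 233, 259 and 258 CPM with vehicle and at 297, 284, 333 and 312 CPM with ivermectin, without overlap (log2 difference 0.25, SE 0.0692, edgeR adjusted p = 0.556). Of 35 proteasome genes 32 were higher, with a median of 0.10 and 5 at an unadjusted p under 0.05. Psmd14, a deubiquitinase subunit of the regulatory particle, was at 78.4, 76.7, 76.3 and 77.9 CPM with vehicle and at 90.6, 93.1, 98.0 and 96.4 CPM with ivermectin, and its groups were well separated (log2 difference 0.29, SE 0.0873, edgeR adjusted p = 0.595). In wild type the medians of these 3 lists were 0.08, 0.05 and 0.01.

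**Figure D4:**
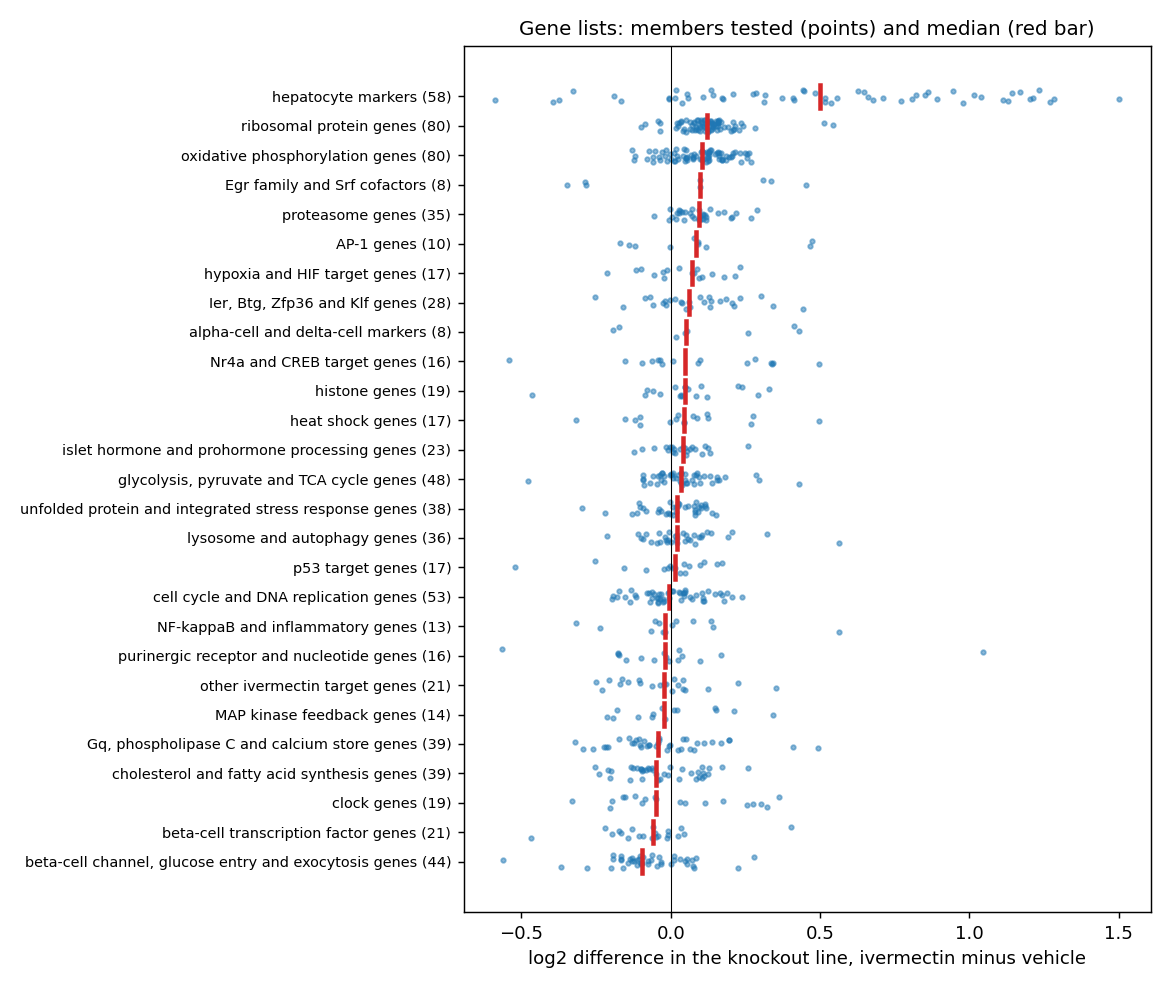
Log2 difference between ivermectin and vehicle in the knockout line (horizontal axis) for each tested member (points) of lists with at least 8 tested members, whose number is in brackets, and the list median (red bars). Hepatocyte markers reach the highest median, 0.50, and channel, glucose entry and exocytosis genes the lowest, -0.09.

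A difference by transcript length ran through the same libraries. With all genes split into 4 bins by transcript length, the median log2 difference was 0.07 in the shortest bin, 0.01 and -0.02 in the middle bins and -0.05 in the longest. The shortest bin held 252 genes that were higher and 32 that were lower at an unadjusted p under 0.05, and the longest bin held 32 higher and 200 lower. Across genes, which are not independent replicates, Spearman's rho between length and the difference was -0.29 in the knockout comparison and -0.06 in wild type. In single libraries the longest bin minus the shortest bin stood at -0.03, 0.25, 0.05 and -0.03 log2 units with vehicle and at -0.01, 0.07, -0.21 and -0.10 with ivermectin. Vehicle replicate 2 and ivermectin replicate 3 were the ends of this measure, and the groups overlapped (exact two-sided permutation p = 0.286). Those 2 libraries also held the lowest ribosomal protein median among vehicle libraries, -0.25, and the highest among ivermectin libraries, 0.18, so leaving them out lowers that list's difference by construction. Without them the medians of the ribosomal protein, oxidative phosphorylation and proteasome lists were 0.01, 0.01 and 0.02, that of the channel, glucose entry and exocytosis list was -0.02, and 447 genes rather than 822 had an unadjusted p under 0.05. Dropping vehicle replicate 2 alone left 528, dropping ivermectin replicate 3 alone left 547 and dropping ivermectin replicate 4 left 608, while dropping ivermectin replicate 2 gave 1077. With the length and GC trend of each library taken out, 56 of 80 ribosomal protein genes, 44 of 80 oxidative phosphorylation genes and 27 of 35 proteasome genes were above 0, at medians of 0.03, 0.02 and 0.03. At an unadjusted p under 0.05 that left 11 ribosomal protein genes higher and 3 lower, 9 oxidative phosphorylation genes higher and 5 lower, and 4 proteasome genes higher and 0 lower. Of all 10822 genes that fit gave 374 higher and 314 lower at that p, and 5530 above 0. Of the 44 channel, glucose entry and exocytosis genes 12 were then above 0, at a median of -0.06. Rn45s held 0.205% to 0.601% of counts with vehicle and 0.146% to 0.367% with ivermectin (exact two-sided permutation p = 0.286). The part of length or RNA quality in these list values was not tested.

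**Figure D5:**
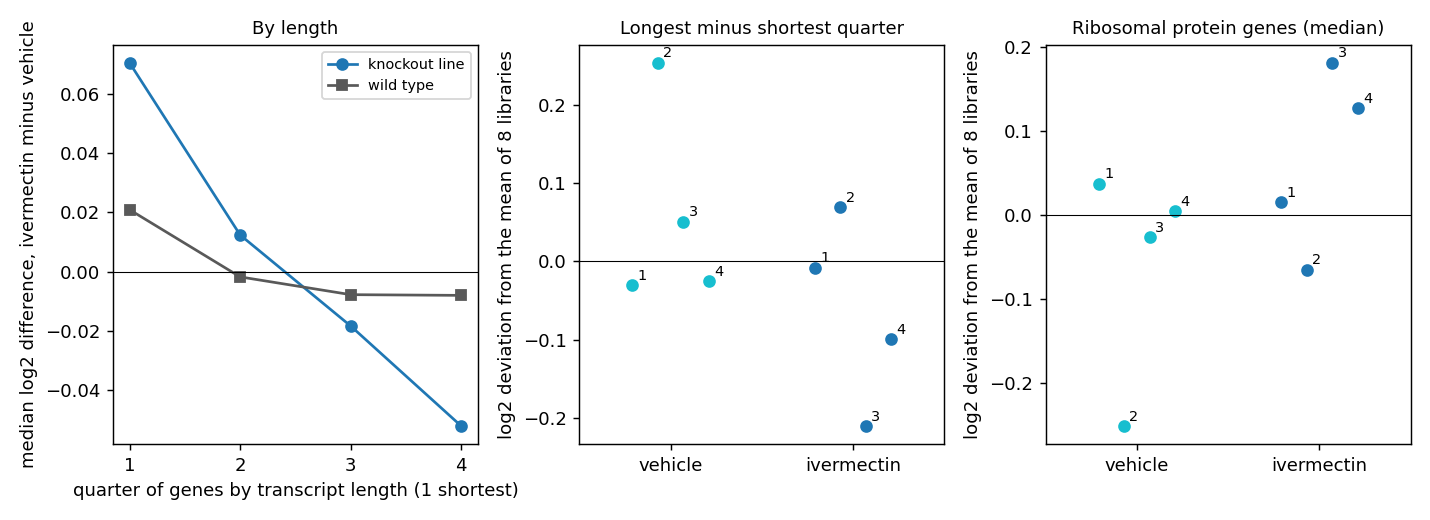
Left, median log2 difference between ivermectin and vehicle in 4 bins of genes by transcript length in both lines. Middle, for each knockout library, numbered by replicate, the median deviation of the longest bin minus that of the shortest bin. Right, the median deviation of ribosomal protein genes in the same libraries. Both are in log2 units from the mean of the 8 libraries, and vehicle replicate 2 and ivermectin replicate 3 are at opposite ends of both.

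The 20 genes described next had the smallest unadjusted p among those without overlap, 10 higher and 10 lower, and none passed the adjusted threshold. Their values are given without the length and GC trend taken out. At an unadjusted p under 0.05 the shortest bin held 252 of the 435 higher genes and the longest bin 200 of the 387 lower ones. Immp1l (chr2:105904638-105965558, GRCm38.p6), a peptidase subunit of the mitochondrial inner membrane, was at 30.2, 22.1, 31.4 and 32.3 CPM with vehicle and at 49.9, 39.4, 44.4 and 39.5 CPM with ivermectin. Every ivermectin library exceeded every vehicle library, and the log2 difference was 0.58 (SE 0.130, edgeR adjusted p = 0.556). Fdx1 (chr9:51943023-51963602), the mitochondrial electron carrier ferredoxin, had 15, 20, 20 and 22 counts with vehicle and 36, 25, 29 and 26 with ivermectin, a log2 difference of 0.77 (SE 0.197). Its 95% interval ran from 1.29-fold to 2.25-fold. Rbx1, the RING subunit of cullin ubiquitin ligases, was at 0.32 (SE 0.0790), Glrx3, an iron-sulfur glutaredoxin, at 0.46 (SE 0.120) and Glo1, the glyoxalase that clears methylglyoxal, at 0.37 (SE 0.102). Sla2, an adaptor protein gene, was at 0.48, Rcn2, a calcium-binding protein of the endoplasmic reticulum, at 0.35, Rbm8a, a subunit of the exon junction complex, at 0.31 and 0610007P22Rik at 0.49. Cycs, given above, completed the 10.

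Gatad2a (chr8:69907069-69996402), a subunit of the NuRD chromatin remodelling complex, was at 109, 118, 115 and 109.7 CPM with vehicle and at 79.3, 97.1, 92.8 and 87.3 CPM with ivermectin. All 4 ivermectin libraries were below all vehicle libraries, and the log2 difference was -0.35 (SE 0.0887, edgeR adjusted p = 0.556). Foxk1 and Foxk2, closely related forkhead transcription factors, were at -0.51 (SE 0.138) and -0.26 (SE 0.0779). Taf4a, a TFIID subunit, was at -0.53 (SE 0.138), and Gigyf1, a translational repressor, at -0.32 (SE 0.0952). Fads2, a fatty acid desaturase, was at 160, 162, 155 and 152 CPM with vehicle and at 141, 134, 131 and 127 CPM with ivermectin (log2 difference -0.24, SE 0.0730). Its standard error was the smallest of the 10 lower genes. Mark4, a microtubule-affinity kinase, was at -0.59, and BC023829, Tbc1d22a and Gm12669 were at -0.37, -0.38 and -0.63. Polr2a, the largest subunit of RNA polymerase II, was at 187, 253, 212 and 211 CPM with vehicle and at 183, 188, 138 and 152 CPM with ivermectin. It was not among the 10, since ivermectin replicate 2 was level with vehicle replicate 1, and its log2 difference was -0.38 (SE 0.0985, edgeR adjusted p = 0.556), or -0.22 without vehicle replicate 2 and ivermectin replicate 3.

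Members of the stress, lipid and clock lists were counted the same way, and none passed the adjusted threshold. Of 38 unfolded protein and integrated stress response genes 23 were above 0, with a median of 0.02 and 37 of 38 intervals within 1.5-fold. At an unadjusted p under 0.05, 4 of the 38 were higher and 1 was lower, against 4.02% and 3.58% of all genes, and 4 had ivermectin values all above the vehicle values, against 1.89% of all genes. Hsp90b1, the endoplasmic reticulum chaperone GRP94, was at 3456, 3383, 3512 and 3444 CPM with vehicle and at 3640, 3535, 3886 and 3912 CPM with ivermectin, without overlap (log2 difference 0.12, SE 0.0469, edgeR adjusted p = 0.610). Hspe1, the mitochondrial co-chaperonin, had the smallest unadjusted p of the heat shock list, with a log2 difference of 0.27 (SE 0.0826), and 11 of 17 members were above 0, 2 of them higher at an unadjusted p under 0.05. Of 39 cholesterol and fatty acid synthesis genes 14 were above 0, and 3 had an unadjusted p under 0.05, all lower, among them Fads2 and Acaca, the acetyl-CoA carboxylase, against 3.58% of all genes lower. With the length and GC trend of each library taken out, 19 of the 39 were above 0 and 1 was lower at an unadjusted p under 0.05. Of all 10822 genes 5530 were then above 0 and 314 were lower at that p. Acaca moved from -0.21 to -0.13. Of 19 clock genes 9 were above 0 and 0 reached an unadjusted p under 0.05. Bhlhe40, a clock repressor, had ivermectin values from 16.3 to 20.0 CPM below vehicle values of 21.45 CPM or more (log2 difference -0.33). Of 53 cell cycle and replication genes 25 were above 0, and 52 intervals lay within 1.5-fold.

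Liver transcripts varied between libraries of the knockout line. Of 104 hepatocyte markers 58 were tested, 50 were above 0, the median log2 difference was 0.50, and 7 were higher at an unadjusted p under 0.05, against 4.02% of all genes. Alb was at 52.3, 17.1, 36.4 and 49.8 CPM with vehicle and at 144, 28.0, 71.2 and 29.8 CPM with ivermectin. Ivermectin replicate 1 was the highest library, and 2 of the other 3 ivermectin libraries were within the vehicle range. The summed share of hepatocyte markers was 0.127% to 0.157% of counts with vehicle and 0.144% to 0.190% with ivermectin (exact two-sided permutation p = 0.343). Ttr, which is also in the list of alpha-cell markers, weighed heavily in that share, at 1476 to 1676 counts with vehicle and 1391 to 1600 with ivermectin. Alb alone held 0.00172% to 0.00516% of counts with vehicle and 0.00278% to 0.0142% with ivermectin (exact two-sided permutation p = 0.429). Without ivermectin replicate 1 the list median was 0.05. In wild type the same list was at a median of -2.47, and hepatocyte markers were 20 of the 24 genes whose ivermectin effect differed between the lines at an edgeR adjusted p under 0.05. Alb was at 923, 328, 380 and 684 CPM in wild-type vehicle libraries and at 172, 64.1, 57.7 and 112 CPM with ivermectin there. Markers such as Plg, at 0, 3, 5 and 1 counts with vehicle and 7, 3, 6 and 4 with ivermectin in the knockout line, were tested only through their wild-type level. The 20 are therefore no result about the knockout line. With the marker genes left out, 2 genes differed. The 24 became 8 when knockout ivermectin replicate 1 was dropped. They became 14 when ivermectin replicate 3 of wild type was dropped, and 48 when ivermectin replicate 1 of wild type was. The other 4 of the 24 were Egr1, the only one with a smaller value in the knockout line, and Phyh, Scd1 and Fn1. The source of the liver transcripts was not tested.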

How the data were processed

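Poly(A)-selected, strand-directional RNA libraries were made from 125 ng of RNA with 11 PCR cycles and read in pairs of 42 bases, per the labels' protocols. The authors deposited expected counts and TPM per gene and library, and a table of whole-number counts; the submitters' processing notes name bcl2fastq, STAR 2.7.2b, RSEM 1.3.3, DESeq2 1.32.0 and mm10. The deposited counts table equals the expected counts rounded down. Deposited TPM values were read only as a check on level, and human single-cell files were not analysed here. Expected counts of all 16 libraries were rounded and fitted together in edgeR 4.0.16 (R 4.3.3), with TMM factors, filterByExpr (minimum count 10, minimum total 15), the quasi-likelihood F test and Benjamini-Hochberg adjustment at 0.05. Intervals are 95% t intervals from that fit. Totals of 1575353 to 2013475 counts per library limit precision, and counting limits cover counting error only. Alternatives used DESeq2 1.42.0, limma 3.58.1 voom, other filters and scalings, a replicate block, left-out libraries and genes, and an offset for length and GC. The main fit was also run on simulated data, whose outcome is not used here. The members and gene lists were chosen with earlier results of these data known. Named genes were P2ry1 and the 6 early response genes that passed higher in wild type. Also named were the 10 non-overlapping genes with the smallest unadjusted p in each direction, extreme genes and genes past the threshold without a filter. Up to 4 leading members of each list were added with its defining members. Promoters came from RefSeq GRCm38.p6.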

Additional observations from a re-analysis of the deposited data

Results flagged for a closer look

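In groups of 4 libraries, 14 of 158 groups had 1 library far from the other 3, where a rate of 1 in 20 gives about 8. The groups were mainly values of the named genes, many of them chosen from these same libraries. That rate does not apply to genes chosen so, and an excess cannot be read from these counts. With vehicle, replicate 2 was low for Rps23 (468 CPM) and Rps12 (512 CPM). Replicate 4 was high for 0610007P22Rik (37.6 CPM) and low for Ero1lb (1397 CPM). Replicate 3 was low for Taf4a (28.9 CPM) and high for Gm12669 (70.8 CPM), and replicate 1 was low for BC023829 (46.5 CPM). With ivermectin, replicate 4 was high for Dusp1 (58.9 CPM) and U05342 (7.12 CPM, the other 3 at 0) and low for BC023829 (36.2 CPM). Replicate 2 was low for Tbc1d22a (30.3 CPM) and Mdh1 (609 CPM), replicate 3 was high for Rbm8a (177 CPM), and replicate 1 was high for Gm7334 (83.6 CPM, the other 3 at 0).

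The ivermectin effect differed between the lines, by the interaction test in edgeR, for Egr1 (-1.22, knockout minus wild type, log2) and for the hepatocyte markers Alb (3.34), Apoa1 (3.83), Serpina3k (4.40), Cyp2e1 (3.61) and Apoe (2.57).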

How the results depend on the processing

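The count of 0 genes past the adjusted threshold in the knockout comparison was the same with DESeq2, limma voom, relative log expression factors, a mean of at least 50 counts, the 8 knockout libraries alone, the deposited count table and each library left out (lowest 0, highest 0). It was 23 with no low-count filter. Replicate numbers did not pair the libraries: deviations of vehicle and ivermectin libraries with the same number correlated at -0.03, 0.15, -0.03 and -0.02. With the replicate number as a block, 5 genes passed in the 8 knockout libraries (Rn45s, Lars2, Rps12, Polr2a and U05342) and 48 genes differed between the lines in all 16 libraries. Genes at an unadjusted p under 0.05 numbered 377 of 17707 tested with DESeq2 and 447 without vehicle replicate 2 and ivermectin replicate 3, against 822; with 1 library left out the count ranged from 528 (without vehicle replicate 2) to 1077 (without ivermectin replicate 2), and it was 547 without ivermectin replicate 3. Genes whose effect differed between the lines numbered 82 with no low-count filter, 4 with a mean of at least 50 counts, 2 with hepatocyte markers left out and 14 without both ends of the length trend. With 1 library left out they ranged from 8 (without knockout ivermectin replicate 1) to 48 (ivermectin replicate 1 of wild type), and were 14 with ivermectin replicate 3 of wild type dropped. Intervals within 1.5-fold numbered 7866 to 8094 with 1 library left out. Directions turned for Gm7334, at -0.58 with voom and from -6.84 to 2.04 with 1 library left out, and for P2ry1, from -0.0363 to 0.0941 with 1 library left out. They also turned for Iapp (-0.0240 with the length and GC offset) and Ins2 (-0.0163 without both ends of the length trend). The cause was not tested. Of the remaining values of named genes 1423 kept direction and side, and 22 came to pass with no filter or the block. Of list medians 587 moved by less than the spread between replicates and 30 by more. The length offset, the removal of Rn45s with Lars2, of both ends of the length trend and of single wild-type libraries were chosen after seeing the data. Low depth limits genes under 3 log2 CPM most.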
